A study of Penicillium oxalicum with 15 samples.

Results

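The genes described here were strongly higher on cellulose than on glucose in the reference strain of the filamentous fungus Penicillium oxalicum. In each of 3 comparisons with altered strains they differed from that strain by less than 2-fold on the log2(FPKM + 1) scale used below. They number 75 of the 9976 genes in the deposited table, and of the 8765 genes that reached 1 FPKM (counted fragments scaled by gene length and library size) in at least 3 of the 15 libraries. They were chosen by measured values. A gene had to have a mean of log2(FPKM + 1) at least 3 higher in M12 on cellulose than in M12 on glucose, an 8-fold difference on that scale. It also had to lie between -1 and 1 for gClrBID against M12 on glucose, for gClrBID against M12 on cellulose, and for the creA deletion against M12 on cellulose. Because 1 is added to each value, FPKM itself could differ more than 2-fold within these limits. On glucose PDE_04106 had a mean of 11.4 FPKM in gClrBID and 5.18 in M12, and PDE_06891 had 0.535 and 0.0509. Every difference below is of this kind, a difference of group means of log2(FPKM + 1), unless a ratio of FPKM is named.

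RNA was measured in mycelia of 3 strains, in 5 groups of 3 libraries: the creA deletion mutant deltacreA on cellulose, gClrBID (a strain made to overexpress a ClrB internal mutant) on cellulose and on glucose, and the reference strain M12 on cellulose and on glucose. All mycelia were grown for 22 h in Vogel's medium with 2% glucose and then kept for 4 h on 2% (w/v) of the named carbon source at 30 °C and 200 rpm. The series calls the libraries biological triplicates and says no more of the cultures, so errors and p-values measure only how far these libraries spread, which may be technical. Neither a culture of the creA deletion on glucose nor a strain without clrB was analysed here. RNA came from whole mycelium, where a change in the share of a cell type and a change in RNA per cell cannot be told apart.

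In cellulose-degrading fungi, the genes of extracellular cellulases and of sugar transporters are held low while glucose is present and are switched on by plant cell wall material. ClrB is a zinc cluster activator of cellulase genes in Penicillium, and CreA is the zinc finger repressor of carbon catabolite repression, which keeps genes for other carbon sources low in glucose. Moving mycelia from glucose to cellulose takes away a readily used sugar and adds an insoluble polymer, and in a difference between those media these changes cannot be told apart.

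The 15 libraries held 10129668 to 18361205 fragments, worked back from the steps of the FPKM values. The altered genes stood as labelled on their main contrast. The deletion had 0.105, 0.0542 and 0 FPKM of creA, against 407, 423 and 472 FPKM in M12 on cellulose. For clrB, gClrBID on glucose had 465, 488 and 456 FPKM, against 10.4, 9.75 and 9.996 in M12 on glucose. With cellulose the order turned, with 56.0, 76.2 and 88.8 FPKM of clrB in gClrBID against 160, 148 and 150 in M12. Another gene that moved with a strain was brlA, the regulator of conidiation (the making of asexual spores), at 346, 335 and 271 FPKM in the creA deletion against 35.3, 41.4 and 50.2 in M12 on cellulose, and its part in the results below was not tested. The windows on gClrBID therefore compare M12 with a strain that held much more clrB RNA on glucose and less of it on cellulose. Less clrB RNA did not go with less cellulase RNA there. On cellulose the 5 cellulase genes of the list described below were all higher in gClrBID, by 2.39 (cel61A) to 5.69 (cel6A). The activity of ClrB was not measured, and whether the clrB values tell the native RNA from that of the mutant is not given. Of the 75 identifiers 0 could be paired with a gene of the RefSeq list of strain HP7-1, and the deposited table gives no names, so the members are given by locus tag and without a function.

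Genes that passed the first criterion numbered 507, or 5.78% of those tested, and most of them left at least 1 of the 3 windows. Over all tested genes the windows were wide: 79.8% lay within -1 to 1 for gClrBID against M12 on glucose, 90% for gClrBID against M12 on cellulose and 80.5% for the creA deletion. Among the 507 induced genes the same windows held 319 (62.9%), 279 (55%) and 177 (34.9%). The creA comparison removed the most, with 218 induced genes lower and 112 higher by 1 or more. In gClrBID on cellulose 154 were lower and 74 higher by that much, and in gClrBID on glucose 89 were lower and 99 higher. The median of all tested genes was -0.28 in the creA comparison and -0.26 in gClrBID on glucose. With another scaling of the libraries (median-of-ratios) these medians were 0.004 and 0.001. The splits into higher and lower may thus depend on the scaling, and they were not recounted on the other one. In all, 75 induced genes (14.8%) left no window, 189 left 1, 172 left 2 and 71 left all 3.

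**Figure D1:**
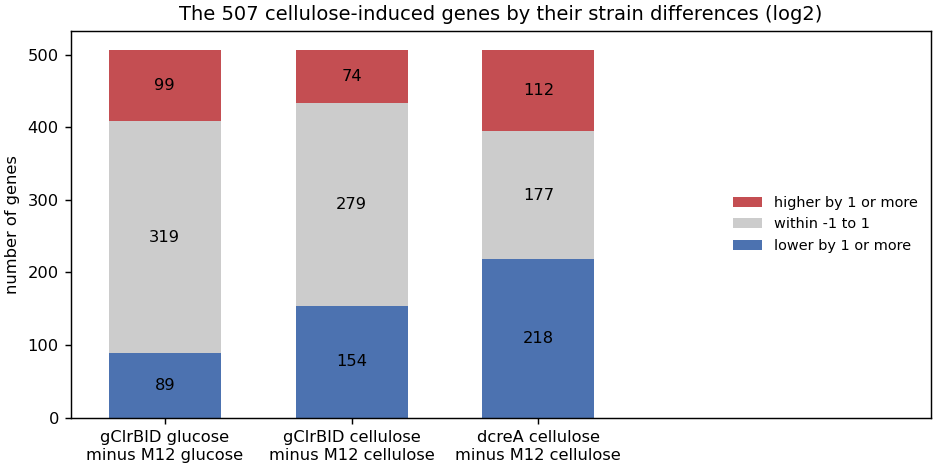
Number of cellulose-induced genes (507 with a difference of at least 3 in M12) that were higher by 1 or more, within -1 to 1, or lower by 1 or more in each strain comparison (log2 differences). The window of the creA deletion (dcreA on the axis) holds the fewest, 177 genes, and the 75 members are the genes that stand in the middle part of all 3 bars. All parts were counted on the FPKM scaling only.

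None of 16 genes whose tags were fixed from knowledge of the species was a member. The list held 5 cellulase genes, 2 beta-glucosidase genes, 1 xylanase gene, 2 amylolytic genes, the transporter gene cdtC, 4 regulator genes and the conidiation regulator gene brlA, and it was drawn up with earlier results of these data known. Of these, 14 passed the first criterion and each of the 14 left at least 1 window. So did 432 of the 507 induced genes, and nothing is read from the count. The 4 that left only 1 window were the beta-glucosidase gene PDE_02736, at -1.37 in gClrBID on glucose, amy15A (PDE_09417), for a glucoamylase, at 2.51 in gClrBID on cellulose, amy13A (PDE_01201), for an alpha-amylase, at 2.50 in the creA deletion, and brlA (PDE_00087), at 2.88 in the creA deletion. The xylanase activator gene xlnR (PDE_07674) stayed within all 3 windows, at 0.01 in the creA deletion, 0.33 in gClrBID on cellulose and 0.39 in gClrBID on glucose, but rose by only 1.65 on cellulose. The other gene under the first threshold was creA (PDE_03168), at 2.59.

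The members spanned a wide range of levels. In the creA deletion on cellulose their mean levels ran from 5.62 to 8039 FPKM with a median of 72.9, in gClrBID on cellulose from 4.68 to 12691 with a median of 73.0, and in M12 on cellulose from 8.52 to 13439 with a median of 95.6. On glucose the medians were 3.43 FPKM in gClrBID and 3.57 in M12, and 23 members in gClrBID and 19 in M12 had a mean under 1 FPKM. On cellulose 29 members reached 100 FPKM in the creA deletion, 30 in gClrBID and 36 in M12. Their coding lengths, read from the FPKM steps, ran from 153 to 4776 bases with a median of 1380, against 1212 bases over all tested genes and 1198.5 over the other 432 induced genes.

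**Figure D2:**
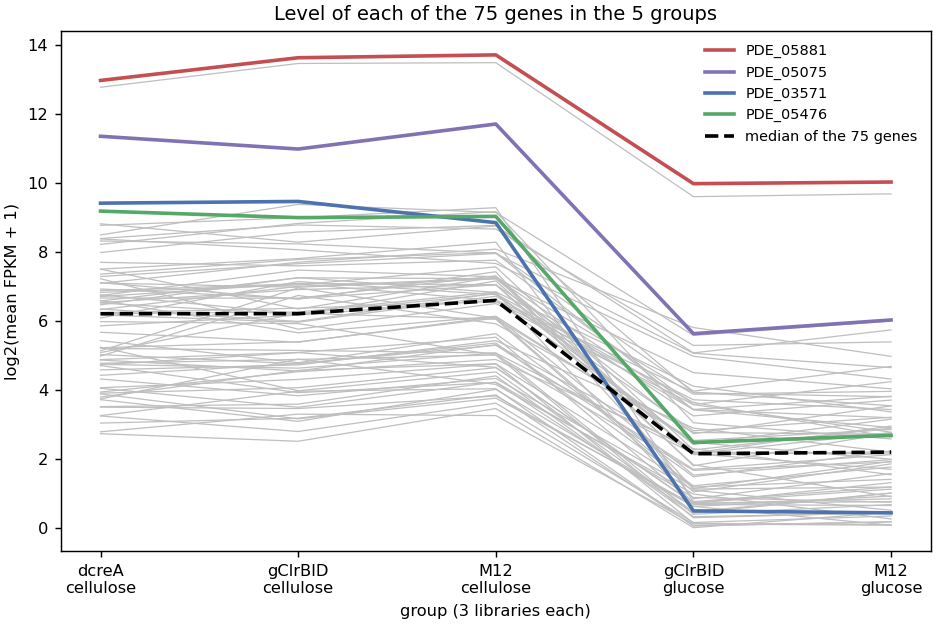
Level of each of the 75 genes in the 5 groups, as log2(mean FPKM + 1) over 3 libraries. Grey lines are single genes, coloured lines are 4 named ones and the dashed line is the median over the genes. The lines step down from the cellulose to the glucose groups, as the rule requires of M12. Between gClrBID and the creA deletion on cellulose, which the rule did not compare directly, differences ran from -1.46 to 1.82.

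The neighbouring tags PDE_05881 and PDE_05882 stood far above the others. PDE_05881 had 8190, 8508 and 7418 FPKM in the creA deletion, 12855, 12788 and 12430 in gClrBID on cellulose, and 13125, 13825 and 13365 in M12 on cellulose. On glucose it had 973, 997 and 1054 FPKM in gClrBID and 1032, 1053 and 1042 in M12. The creA deletion libraries were thus each below every gClrBID and M12 library on cellulose, while gClrBID and M12 overlapped on glucose and M12 lay just above gClrBID on cellulose. PDE_05882 had 7218, 7359 and 6447 FPKM in the creA deletion, 12024, 11255 and 10661 in gClrBID on cellulose and 11164, 11081 and 12229 in M12 on cellulose. Its glucose values were 747, 780 and 802 FPKM in gClrBID and 811, 887 and 766 in M12, so that both pairs of groups of gClrBID and M12 overlapped. The differences from M12 were nearly the same for both genes: -0.74 ± 0.06 and -0.71 ± 0.07 in the creA deletion, -0.08 ± 0.06 and -0.02 ± 0.07 in gClrBID on cellulose, and -0.05 ± 0.06 and -0.08 ± 0.07 in gClrBID on glucose, for PDE_05881 and PDE_05882 in that order (SE, n = 3 per group). Whether fragments could be shared between these neighbours was not given in the sources used here.

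These neighbours carried a large part of the RNA of the set, which was examined as a share of all counted fragments. The 75 genes together held 2.54 ± 0.123% of the fragments in the creA deletion, 3.26 ± 0.122% in gClrBID on cellulose and 3.58 ± 0.0825% in M12 on cellulose. On glucose they held 0.215 ± 0.00548% in gClrBID and 0.216 ± 0.00407% in M12 (SD, n = 3 each). PDE_05881 and PDE_05882 made up 1.01 ± 0.0706%, 1.62 ± 0.0667% and 1.67 ± 0.0505% of the fragments in the 3 cellulose groups in the same order. The other 73 genes held 1.53 ± 0.0552% in the creA deletion, 1.64 ± 0.0565% in gClrBID and 1.91 ± 0.0321% in M12 on cellulose. On cellulose the share of the 73 was lower in gClrBID than in M12 by more than the spread between libraries. The rule used the levels of both strains on cellulose, so this is a description only. On glucose the 73 held 0.0960 ± 0.00305% in gClrBID and 0.0917 ± 0.00137% in M12. A share is set by the fragments of its own library and does not change with the scaling. For the creA deletion, median-of-ratios scaling moved the median of all genes up by 0.284 (log2) against M12. No direction of the members' levels is therefore read from the share in that strain.

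Of the other members with the highest levels, PDE_05075 had 2660, 2857 and 2332 FPKM in the creA deletion, 1926, 2113 and 2031 in gClrBID and 3320, 3413 and 3308 in M12 on cellulose. On glucose it had 45.5, 50.4 and 49.4 FPKM in gClrBID and 61.5, 62.6 and 68.2 in M12. M12 was higher in each comparison without overlap, and the differences were -0.36 ± 0.07, -0.73 ± 0.07 and -0.40 ± 0.07 for the creA deletion, gClrBID on cellulose and gClrBID on glucose (SE, n = 3 per group). PDE_08035, the fourth highest at 622 ± 21.4 FPKM in M12 on cellulose (SD, n = 3), is described with its neighbouring tags further on. PDE_09870 and PDE_08396 came after it at 574 ± 21.6 and 564 ± 28.4 FPKM in M12 on cellulose (SD, n = 3), a difference within their spread. On cellulose PDE_08396 had 382, 360 and 335 FPKM in the creA deletion, 660, 663 and 670 in gClrBID and 541, 557 and 596 in M12, so that the altered strains lay on opposite sides of M12. PDE_09870 was the more uneven of them, higher in gClrBID on glucose (0.46 ± 0.08) and lower in the creA deletion (-0.95 ± 0.08).

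The size of the cellulose response ranged from 3.01 to 8.42 with a median of 3.66, and 25 members reached 4. All 75 members were called by limma at an adjusted p under 0.05, as were 84.1% of all tested genes (41.3% higher and 42.8% lower), and the rule required the rise. PDE_03571 had 648, 724 and 671 FPKM in the creA deletion, 771, 685 and 658 in gClrBID and 426, 501 and 453 in M12 on cellulose. Its glucose values were 0.418, 0.308 and 0.477 FPKM in gClrBID and 0.391, 0.279 and 0.371 in M12, from 8 to 11 fragments per M12 library. This was the member with the largest response, 8.42 ± 0.07 in M12, a ratio of mean FPKM of 1326, and it was higher in both altered strains on cellulose, by 0.57 ± 0.07 and 0.61 ± 0.07 (SE, n = 3 per group). PDE_08035 followed at 8.10 ± 0.07, PDE_02146 at 6.71 ± 0.14, PDE_09870 at 6.59 ± 0.08, PDE_05476 at 6.35 ± 0.11 and PDE_03244 at 6.25 ± 0.10.

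The members can be ordered by their level on glucose, against which the response is measured. The 19 members with a mean under 1 FPKM in M12 on glucose had a median level of 17.7 FPKM in M12 on cellulose and a median ratio of FPKM of 87.7, from 17.0 to 1326. The 38 members between 1 and 10 FPKM on glucose had a median of 79.4 FPKM on cellulose and a median ratio of 17.1. The 18 members at 10 FPKM or more on glucose had a median of 249 FPKM on cellulose and a median ratio of 10.7, from 8.22 to 52.2. The glucose window could not be left downward by the 19 genes of the lowest class, because a fall to 0 FPKM from under 1 FPKM is a difference of less than 1 on this scale. For them the window bounded only a rise.

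The carbon response was seen in gClrBID as well. All 75 members were called higher on cellulose than on glucose in that strain, by 1.83 to 8.97 with a median of 3.6, while 83.7% of all tested genes were called there (49.4% higher and 34.3% lower). The rule bounds this response from below at 1. The response of gClrBID differed from that of M12 by an interaction of -1.57 to 1.19, with a median of -0.08 against 0.26 over all tested genes, and it was called for 45 members (60%) and for 68.1% of all tested genes. It was more positive in 15 members and more negative in 30, against 48% and 20.1% of all tested genes. Median-of-ratios scaling took the median interaction to -0.259 in the members and to 0.042 over all tested genes. The balance of signs over all genes thus depends on the scaling.

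Within the windows, limma called 48 members (64.0%) for gClrBID against M12 on glucose, 58 (77.3%) for gClrBID against M12 on cellulose and 56 (74.7%) for the creA deletion against M12 on cellulose, against 71.8%, 59.4% and 75.4% of all tested genes. The rule used these contrasts, so the counts are given as a description and nothing is read from them. By number of comparisons, 32 members were called in all 3, 27 in 2, 12 in 1 and 4 in none. The 4 are 5.33% of the members, a share close to the 5.48% of all tested genes called in none. For 3, 2 and 1 comparisons the share of all tested genes was not counted, and nothing is read from those numbers.

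**Figure D3:**
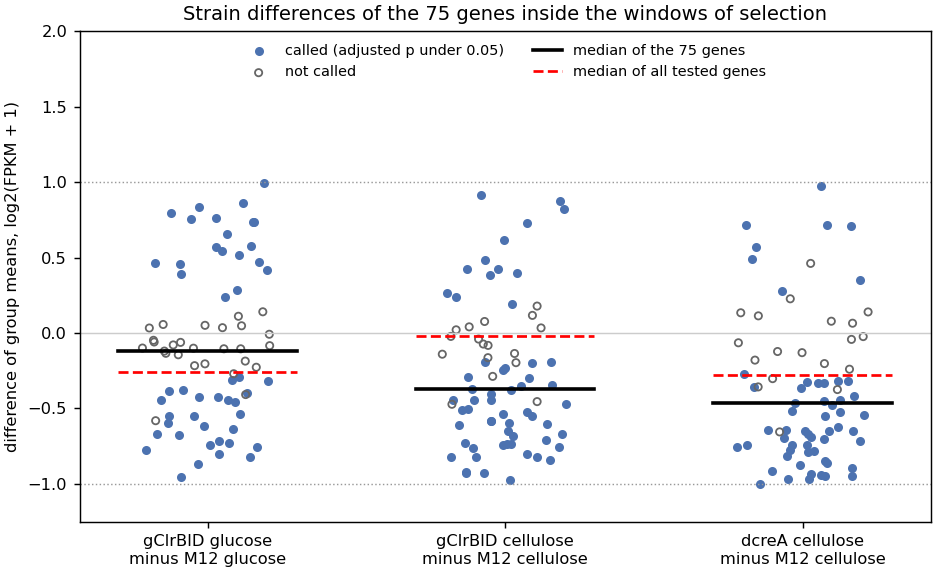
Difference from M12 of each of the 75 genes in the 3 strain comparisons, on log2(FPKM + 1). Filled points passed an adjusted p under 0.05 and open points did not, black lines are medians of the 75 genes, dashed red lines are medians of all tested genes, and dotted lines are the limits of the windows. On cellulose the points lie mostly below 0 in both altered strains, with medians of -0.37 in gClrBID and -0.47 in the creA deletion. With median-of-ratios scaling, not shown, these medians are -0.318 and -0.148.

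In the creA deletion on cellulose 48 members were called lower and 8 higher, against 54.2% lower and 21.2% higher among all tested genes. The members' median was -0.47, and that of all tested genes -0.28. With median-of-ratios scaling the split became 32 lower and 15 higher and the members' median -0.15. The median of all tested genes became 0.004, a shift of 0.28, and their called shares were not counted on that scaling. In this comparison the direction of a gene as far below 0 as that shift, or slightly farther, therefore rests on the scaling. PDE_03244, at -0.32, changed sign with it. The most negative member was PDE_07634, with 148, 130 and 127 FPKM in the creA deletion against 277, 271 and 261 in M12, a difference of -0.998 ± 0.061 (SE, n = 3 per group). The most positive was PDE_08037, with 57.2, 64.3 and 64.6 FPKM in the creA deletion against 28.1, 35.1 and 30.3 in M12, a difference of 0.97 ± 0.11. In both genes the libraries of the 2 strains lay apart.

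In gClrBID on cellulose 45 members were called lower and 13 higher, against 32.1% lower and 27.3% higher among all tested genes. The members' median was -0.37, and that of all tested genes -0.02. PDE_05222 was the most negative, with 82.1, 67.3 and 66.0 FPKM in gClrBID against 145, 137 and 142 in M12, a difference of -0.98 ± 0.08 (SE, n = 3 per group). PDE_08037 was again the most positive, with 67.8, 57.0 and 53.8 FPKM in gClrBID against the M12 values above, a difference of 0.91 ± 0.11. It was thus near the upper limit in both altered strains, and PDE_05222 was also lower in the creA deletion, at -0.64 ± 0.08. Set against the creA deletion on cellulose, gClrBID was called higher in 29 members and lower in 22, 68.0% of the set against 70.2% of all tested genes (50.3% higher and 19.8% lower). That balance came to 19 higher and 31 lower with median-of-ratios scaling. The median difference was then -0.131 in the members and -0.028 over all tested genes. Called shares of all tested genes were not counted on that scaling, so nothing is read from the changed balance.

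In gClrBID on glucose 28 members were called lower and 20 higher, against 54.7% lower and 17% higher among all tested genes. The members' median was -0.12, and that of all tested genes -0.26. The split came to 18 lower and 28 higher with median-of-ratios scaling, which moved the median of all genes by 0.26, so no direction of the set is given here. The members' median was then -0.012 and that of all tested genes 0.001, and called shares of all tested genes were not counted on that scaling. PDE_04106 was the most positive, with 11.6, 13.2 and 9.33 FPKM in gClrBID against 5.06, 5.06 and 5.42 in M12, a difference of 0.99 ± 0.13 (SE, n = 3 per group). PDE_05092 was the most negative, with 3.23, 2.01 and 2.18 FPKM in gClrBID against 4.86, 7.04 and 5.27 in M12, a difference of -0.96 ± 0.15. On cellulose PDE_05092 was lower in gClrBID too (-0.92 ± 0.15), at 87.3, 79.0 and 74.1 FPKM against 181, 147 and 133 in M12. In the creA deletion, at 154, 177 and 209 FPKM, it overlapped M12.

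Only 4 members were called in none of the strain comparisons, a group singled out after its values were seen. PDE_05476 was the highest of them and, with the FPKM scaling, the member with the smallest strain differences. Median-of-ratios scaling moved the median of all genes up by 0.284 in the creA comparison and by 0.262 in gClrBID on glucose. Both shifts exceed the differences of PDE_05476 in those comparisons, so its small differences there rest on the scaling. PDE_05476 had 671, 605 and 465 FPKM in the creA deletion, 568, 511 and 447 in gClrBID and 500, 503 and 562 in M12 on cellulose. The 3 cellulose groups overlapped, and the differences from M12 were 0.14 ± 0.11 in the creA deletion and -0.04 ± 0.11 in gClrBID (SE, n = 3 per group). On glucose it had 4.88, 4.33 and 4.43 FPKM in gClrBID and 5.25, 5.10 and 5.82 in M12, a difference of -0.20 ± 0.11 that did not pass the test although the libraries lay apart. PDE_04453 had 40.5, 32.4 and 34.7 FPKM in the creA deletion, 37.0, 32.6 and 33.3 in gClrBID and 30.5, 31.0 and 36.1 in M12 on cellulose, again with overlap, and a mean under 1 FPKM in both strains on glucose. PDE_07654 differed from M12 by -0.24 ± 0.12, -0.14 ± 0.12 and -0.23 ± 0.12 in the creA deletion, gClrBID on cellulose and gClrBID on glucose. The fourth, PDE_08389, has a coding length of 153 bases and the largest SE of all members. Its differences of -0.66, -0.45 and -0.58, in the same order, had an SE of 0.30. On glucose it had 1.95, 0 and 0 FPKM in gClrBID, from 0 to 4 fragments per library, and 1.49, 0.730 and 1.29 FPKM in M12, from 2 to 4 fragments. On cellulose its libraries in both altered strains lay below all of M12, at 32.2, 25.8 and 27.1 FPKM in the creA deletion, 39.4, 31.2 and 28.1 in gClrBID and 45.1, 45.2 and 44.7 in M12, although neither difference passed the test. PDE_09301, with the fourth smallest strain differences of all members, had 342, 333 and 327 FPKM in the creA deletion, 470, 428 and 419 in gClrBID and 416, 402 and 395 in M12 on cellulose. It was called lower in the creA deletion (-0.27 ± 0.07), a sign that turned to 0.047 with median-of-ratios scaling.

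**Figure D4:**
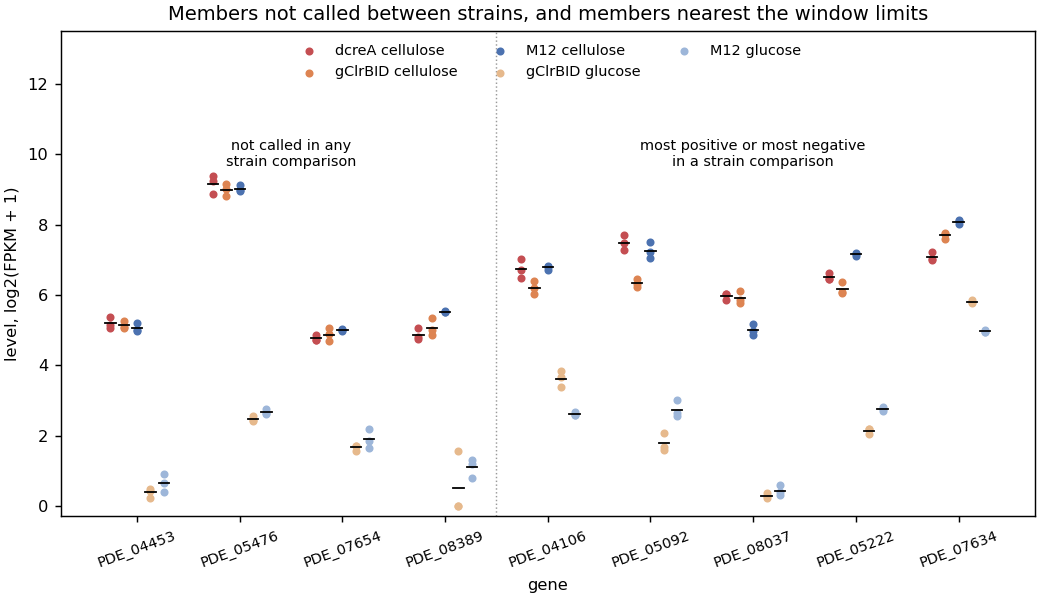
Level, log2(FPKM + 1), in each library of the 4 members called in no strain comparison (left) and of the 5 members that were the most positive or the most negative in a strain comparison (right). Points are libraries and black bars are group means of 3. In PDE_05476 the points of the 3 cellulose groups overlap, while in PDE_08037 both altered strains lie above M12 and in PDE_05222 both lie below it.

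The limits of the windows cut through a continuous range. PDE_07199 entered at a cellulose response of 3.01 ± 0.05 and PDE_04373 was left out at 2.99 ± 0.13. In the creA deletion PDE_07634 was kept at -0.998 and PDE_05454 left out at -1.05 ± 0.06, while PDE_08037 was kept at 0.97 and PDE_02128 left out at 1.04. For gClrBID on cellulose PDE_05222 was kept at -0.98 and PDE_01287 left out at -1.02, with PDE_08037 kept at 0.91 and PDE_05713 left out at 1.03. For gClrBID on glucose PDE_05092 was kept at -0.96 and PDE_05240 left out at -1.01, and PDE_04106 was kept at 0.99 and PDE_04039 left out at 1.04. Each gap between a kept gene and its neighbour was smaller than 2 times the larger SE of the pair, and membership at the limits is not a difference between genes.

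The position of the members was examined through their tag numbers, since no coordinates were used here. Of the 75 members, 11 stood in 5 runs of consecutive tags, and 22 (29.3%) had a cellulose-induced gene at an adjacent tag. The share with an induced neighbour was 32.9% for the other induced genes and 9.34% for all tested genes. The longest run was PDE_08035 to PDE_08037, with 3 members, and it lay inside a longer stretch of tags that rose on cellulose. PDE_08035 had 419, 473 and 414 FPKM in the creA deletion, 555, 499 and 470 in gClrBID and 613, 646 and 606 in M12 on cellulose. On glucose it had 0.748, 0.744 and 0.576 FPKM in gClrBID and 1.22, 1.30 and 1.28 in M12. It was lower than in M12 in all 3 comparisons without overlap. PDE_08036 had 82.7, 95.7 and 83.5 FPKM in the creA deletion, 176, 154 and 125 in gClrBID and 98.6, 120 and 118 in M12 on cellulose, so that gClrBID lay above M12, at 0.42 ± 0.16, and the creA deletion below it, at -0.36 ± 0.16, which did not pass the test (limma adjusted p = 0.055). The third member, PDE_08037, was higher than M12 in both altered strains.

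The tags around this run rose on cellulose too, but left the windows. PDE_08034 and PDE_08038, directly beside the run, left upward on cellulose in both altered strains. PDE_08032 and PDE_08033, farther out, left downward in gClrBID on glucose, and PDE_08032 also in the creA deletion. PDE_08032 and PDE_08033, on the side of PDE_08035, rose in M12 by 3.58 ± 0.09 and 4.67 ± 0.08. Both were lower than M12 in every strain comparison, at -1.24 and -0.80 in the creA deletion, -0.82 and -0.83 in gClrBID on cellulose and -1.16 and -1.32 in gClrBID on glucose. PDE_08034, between these and the run, rose by 2.20 ± 0.14 and was higher in both altered strains on cellulose, by 1.71 and 1.48. PDE_08038, on the other side, rose by 4.66 ± 0.10 in M12 and was higher by 3.22 ± 0.10 in the creA deletion and by 2.34 ± 0.10 in gClrBID on cellulose (SE, n = 3 per group). It had 254, 286 and 261 FPKM in the creA deletion, 157, 140 and 136 in gClrBID and 27.3, 32.2 and 24.4 in M12 on cellulose. The 7 consecutive tags thus shared a rise on cellulose while their strain differences ran from negative to strongly positive.

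**Figure D5:**
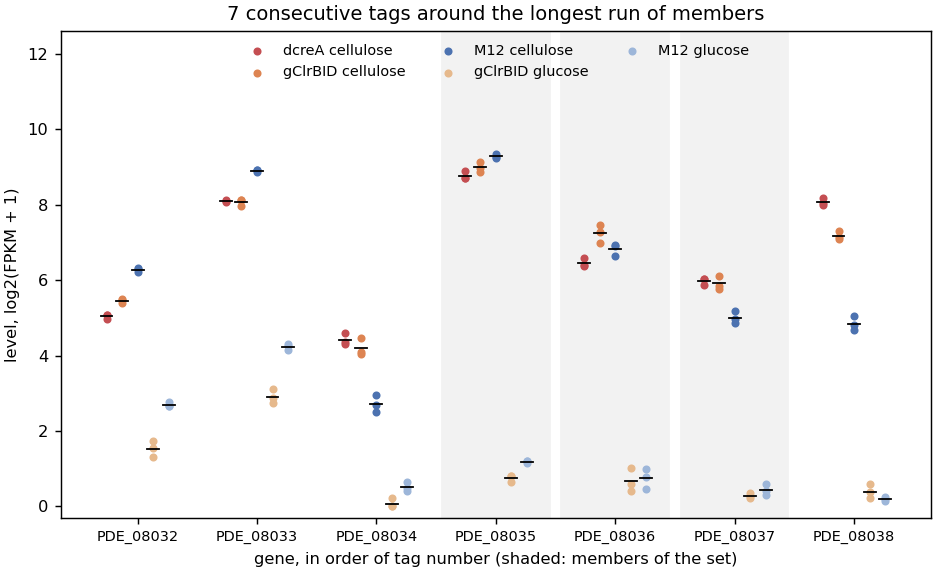
Level, log2(FPKM + 1), in each library of 7 consecutive tags, in order of tag number, with the 3 members shaded. Points are libraries and black bars are group means of 3. All 7 are higher on cellulose than on glucose, and relative to M12 the altered strains on cellulose lie lower at PDE_08032 and PDE_08033 and higher at PDE_08034, PDE_08037 and PDE_08038.

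The other runs were pairs. PDE_05075 and PDE_05076 were both lower in gClrBID, at -0.73 and -0.84 on cellulose and at -0.40 and -0.76 on glucose, although their levels in M12 on cellulose were 3347 ± 57.5 and 48.5 ± 2.07 FPKM (SD, n = 3). PDE_04105 and PDE_04106 were both higher in gClrBID on glucose, at 0.57 ± 0.16 and 0.99 ± 0.13, and lower on cellulose, at -0.51 ± 0.16 and -0.58 ± 0.13. In the creA deletion they stood at -0.02 ± 0.16 and -0.04 ± 0.13. The next tag, PDE_04107, had the same signs in gClrBID, at 1.41 ± 0.12 on glucose and -0.33 ± 0.12 on cellulose, and was left out by the glucose window alone. PDE_07195 and PDE_07196 were low genes of 462 and 306 coding bases with 4 to 10 and 1 to 5 fragments per M12 library on glucose, and their values are correspondingly imprecise. Between them and the member PDE_07199 stand PDE_07197, which rose by 0.997 ± 0.219 to 1.14 FPKM in M12 on cellulose, and PDE_07198, which rose by 1.99 ± 0.28.

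Set beside the members are the 3 largest groups of induced genes that left a single window, described without a test. The 63 induced genes that left the windows only by being lower in the creA deletion had a median of 46.1 FPKM there, against 154 in M12 on cellulose. The 44 that left only by being higher in the creA deletion had a median of 276 FPKM there, against 41.4 in M12 on cellulose. On glucose, 29 of these 44 (65.9%) had a mean under 1 FPKM in M12, compared with 19 of the 75 members (25.3%) and 6 of the 63 (9.52%). The 37 that left only by being lower in gClrBID on cellulose had a median of 21.2 FPKM there, against 62.3 in M12 on cellulose, and 15 of them (40.5%) had a mean under 1 FPKM in M12 on glucose. The members' response on cellulose, a median of 3.66, was below those of the 3 groups, which were 3.98, 4.57 and 4.43 in the order given.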

How the data were processed

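The authors deposited 1 table of FPKM values, 1 column per library, for 9976 genes, of which 187 were at 0 in all libraries. DESeq2, featureCounts 1.5.0-p1, HISAT2 2.0.0 and CASAVA 1.8 are named, per the submitters' processing notes, without the step each served. A stranded mRNA kit was used, per the labels' protocols. Genome build, annotation and strand setting are not given in the sources used here.

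Whole fragments were worked back from the FPKM steps. With a tolerance of 5.5e-05 FPKM, 9788 of 9789 genes above 0 came out whole, and 99.5% of the lengths lay within 0.3 bases of a multiple of 3, hence coding length. Group means of log2(FPKM + 1) were fitted with limma 3.58.1 in R 4.3.3 (15 libraries, 5 group means, variance trend, 7 contrasts, Benjamini-Hochberg over 8765 genes, called under 0.05), and the fit was tested on simulated data. Every adjusted p and SE is limma's.

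The members, the list of 16 fixed genes and the tests were chosen with earlier results of these data known. Members were named by rule: the 6 highest in M12 on cellulose, the 6 largest responses, the 4 with the smallest strain differences, the extremes and nearest genes of each window, and runs of consecutive tags. Runs tied in length, so all 5 are given. PDE_01265, the tags beside the runs and the members called in no strain comparison were added after their values were seen. Alternatives were another pseudocount, filter, scaling, voom weights, a replicate block, fits on the compared groups alone, other thresholds and each library left out.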

Additional observations from a re-analysis of the deposited data

Results flagged for a closer look

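The cellulose response of 45 members differed between gClrBID and M12, by limma's interaction at an adjusted p under 0.05. Its size is bounded by the windows that chose the members, and 68.1% of all tested genes were called in the same way.

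The most positive interaction was that of PDE_01265, at 1.19 ± 0.11 (SE, n = 3 per group, limma adjusted p = 7.4e-08). On cellulose it had 112, 124 and 133 FPKM in gClrBID against 65.9, 67.2 and 66.5 in M12, and on glucose 4.78, 4.71 and 4.85 FPKM in gClrBID against 6.86, 5.41 and 6.35 in M12. In the creA deletion on cellulose it had 34.8, 34.7 and 32.5 FPKM, so that the altered strains lay on opposite sides of M12.

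The most negative interaction was that of PDE_04106, at -1.57 ± 0.18 (SE, n = 3 per group, limma adjusted p = 1.3e-06). On cellulose it had 82.9, 71.8 and 64.2 FPKM in gClrBID against 111, 105 and 112 in M12, while on glucose gClrBID was the higher strain. Its ratio of mean FPKM between cellulose and glucose was 6.40 in gClrBID and 21.1 in M12.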

How the results depend on the processing

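The number of members depends on the thresholds: 9 genes met windows of -0.5 to 0.5, 191 met an induction of at least 2, and 25 an induction of at least 4. Which genes are members depends on the scale. A pseudocount of 0.1 gave 88 genes, 56 of them among the 75, median-of-ratios scaling 89 with 66 shared, and TPM 80 with 70 shared. Leaving out each library in turn gave 72 to 78 genes, with at least 70 shared. The counts of the 75 members called in each contrast stayed within 1.5 times under all alternatives run, the lowest being 37 of 48 with voom weights for gClrBID on glucose. Signs were compared for the named genes only. With median-of-ratios scaling 20 of their 224 differences changed sign, of which 16 had not been called. The 4 called ones, all lower in the creA deletion before it, were those of PDE_03244 (4e-04), PDE_09301 (0.047), PDE_02736 (0.024) and PDE_05240 (0.0655).

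Replicate numbers did not pair the samples: deviations of same-numbered libraries correlated between -0.097 and 0.088 over 30 pairs. With a replicate block the members called were 48, 56 and 58 for gClrBID on glucose, gClrBID on cellulose and the creA deletion, 75 for both carbon responses, 52 between the altered strains and 46 for the interaction. In M12 on glucose 4 members had at most 3 fragments in every library, which limits their glucose values.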
